A study of Homo sapiens with 12 samples.

Results

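The 84 genes described here code for the proteins of the cytosolic ribosome, measured in JJN3, a line of human myeloma cells. They were chosen by symbol alone from the 59276 gene symbols of the deposited table, as RPL or RPS followed by a number, with RPSA, RPLP0, RPLP1 and RPLP2 added and processed pseudogenes left out. They comprise 31 small subunit genes, 46 large subunit genes and 7 paralogs, which are second copies of a subunit gene (RPL3L, RPL7L1, RPL10L, RPL22L1, RPL26L1, RPL39L and RPS27L). The choice by symbol leaves out genes such as FAU, RACK1 and RPL36AL, which also code for ribosomal or ribosome-bound proteins. RNA-seq was run on 12 samples in 4 groups of 3 replicates. Wild-type JJN3 cells received the vehicle DMSO or 10 µM MS023, an inhibitor of type I protein arginine methyltransferases, for 3 days. The other groups were Cas9-expressing JJN3 cells with a doxycycline-inducible lentiviral guide RNA, selected as stable lines and given doxycycline for 3 days, and carried either a control guide (isgCtrl) or 1 guide against PRMT1 (PRMT1-KO). The isgCtrl and PRMT1-KO cells thus share Cas9, the guide vector and doxycycline, which the DMSO and MS023 cells are not labelled with. The study asked how inhibition or loss of PRMT1 changes gene expression in myeloma cells.

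A ribosome holds 1 copy of nearly every ribosomal protein, and the genes of both subunits are expressed together in growing cells. Most of these mRNAs begin with a C followed by an unbroken run of C and U, the terminal oligopyrimidine (TOP) element, through which LARP1 and the mTOR pathway control their translation. Plasma cells secrete large amounts of antibody and depend on high rates of protein synthesis. PRMT1 makes most of the asymmetric dimethylarginine in a cell, and several small subunit proteins, among them RPS2, RPS3 and RPS10, are known substrates of arginine methyltransferases.

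The TOP element is the sequence that these genes share, and it was read from the RefSeq promoter table on GRCh38.p14, which held 67 of the 84 genes. A gene was counted where any of its listed starts was a C that opened an unbroken run of at least 5 C or T on the transcript strand. Such a start was found for 47 of the 67 genes (70.15%), against 1404 of all 27305 genes in the table (5.14%). It was found for 18 of 24 small subunit genes and 28 of 38 large subunit genes, and it was found for 1 of the 5 paralogs listed and for 6 of 69 mitochondrial ribosomal protein genes. The windows below run from 15 bases before a listed start to 15 bases from it, with the run of C and T from the start in capitals. They show the 3 genes that rose with MS023, members that fell, and paralogs beside their main copies.
RPL10 (chrX:154398362-154398391, plus strand): caggcggaggagcgcCTCTTTCCCTTCggt
RPS9 (chr19:54200843-54200872, plus strand): gtggcgcttccgcgcCTCTTTCTCagtgac
RPLP0 (chr12:120201097-120201126, minus strand): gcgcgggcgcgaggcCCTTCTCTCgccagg
RPL21 (chr13:27251543-27251572, plus strand): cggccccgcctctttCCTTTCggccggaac
RPL22 (chr1:6199581-6199610, minus strand): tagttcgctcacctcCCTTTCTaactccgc
RPL22L1 (chr3:170870181-170870210, minus strand): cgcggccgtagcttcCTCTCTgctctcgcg
RPL26 (chr17:8383179-8383208, minus strand): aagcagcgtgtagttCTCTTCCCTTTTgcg
RPL26L1 (chr5:172958714-172958743, plus strand): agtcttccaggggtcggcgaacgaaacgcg
RPS27 (chr1:153990747-153990776, plus strand): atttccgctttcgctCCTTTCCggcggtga
RPS27L (chr15:63157463-63157492, minus strand): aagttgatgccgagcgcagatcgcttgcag
The run is 12 bases in RPL10 and RPL26, 9 in RPS9 and RPLP0, 7 in RPL22 and RPS27, and 6 in RPL21 and RPL22L1. Genes that rose and some genes that fell thus carry it, but the windows show only part of those that fell. RPL14 and RPSA also fell and had such a start, while RPL15, RPL32, RPS29 and RPS7 fell and had none listed. RPL5, RPS15A and RPL39L were not in the promoter table. The listed starts of RPL26L1 and RPS27L open with G and have no such run.

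The values are log2(TPM+1) per gene, where TPM count transcripts scaled for their length, so that levels can be set beside each other between genes. TPM add up to 1000000 in every sample, so the values do not show the read depth and each level is a share of the RNA pool. A lower share, fewer cells of a kind and less RNA per cell cannot be told apart in such values. PRMT1 mRNA ran from 849 to 867 TPM in isgCtrl samples and from 301 to 309 TPM in PRMT1-KO samples, a log2 fold change of -1.50 ± 0.04 (SE; limma, adjusted p = 7.2e-04), and from 634 to 670 TPM in DMSO and 656 to 700 TPM in MS023. Of the plasma cell markers, SDC1, IRF4, PRDM1, XBP1, TNFRSF17 and JCHAIN were at 21.4 TPM or more in every sample, while CD38 stayed between 0.73 and 5.41 TPM. Markers of B, T, myeloid, erythroid, fibroblast and endothelial cells reached at most 7.40 TPM (PECAM1), and the epithelial marker EPCAM ran from 58.5 to 92.5 TPM.

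The 84 genes took up a large part of all TPM. Their summed share was 26.6%, 27.0% and 26.8% in the DMSO samples, 24.8%, 25.2% and 24.0% with MS023, 27.2%, 27.5% and 26.9% in isgCtrl and 27.5%, 27.3% and 27.3% in PRMT1-KO. All 3 MS023 samples were below all 3 DMSO samples, while the isgCtrl and PRMT1-KO samples overlapped. As sums of TPM, MS023 stood at 92.09% of DMSO and PRMT1-KO at 100.6% of isgCtrl. The first of these rests on the scaling: with samples scaled to the median ratio of their genes, it was 100.5%, and the second was 103.6%. Immunoglobulin genes moved with MS023, from 3.53% to 3.69% of TPM in DMSO to 4.80% to 4.95% with MS023, as did the genes of the mitochondrial genome, from 4.9% to 5.0% in DMSO to 5.6% to 5.8% with MS023. With both gene classes left out of the total, the share of the ribosomal protein genes was 29.1% to 29.5% in DMSO and 26.9% to 28.2% with MS023, so the groups did not overlap there either. The ratio of small to large subunit TPM was 0.895 to 0.900 in DMSO, 0.896 to 0.906 with MS023, 0.852 to 0.859 in isgCtrl samples, and 0.855 to 0.857 in PRMT1-KO samples. The samples overlapped within each of these pairs, and both groups with Cas9 and a guide were below both groups without.

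**Figure D1:**
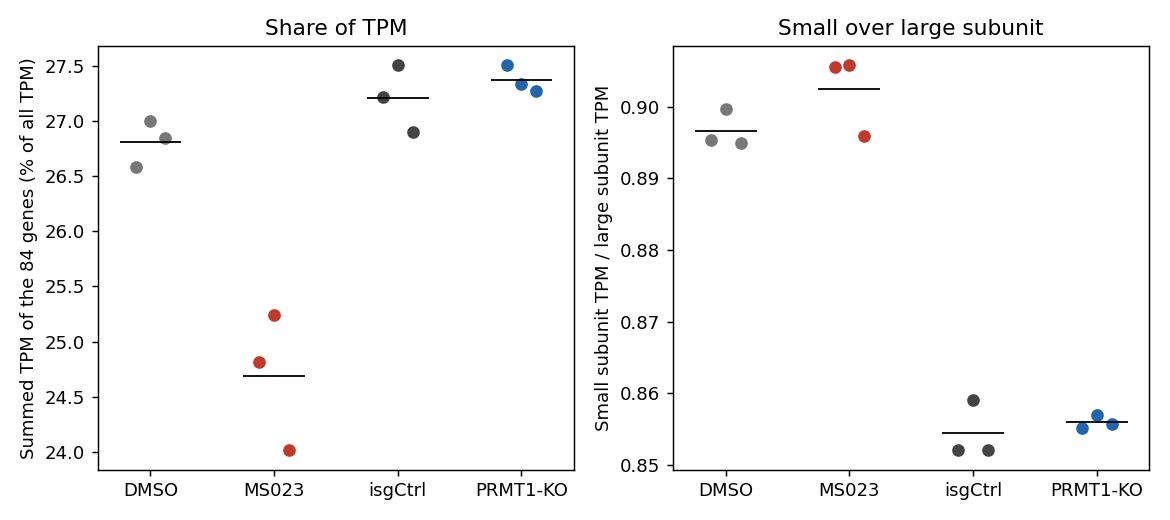
Summed TPM of the 84 ribosomal protein genes as a percent of all TPM (left) and the ratio of small to large subunit TPM (right) for each of the 12 samples. Points are samples, lines are means of 3 replicates, and neither axis starts at 0; the MS023 samples (24.0% to 25.2%) lie below the other 9 on the left, and on the right the isgCtrl and PRMT1-KO samples lie below the DMSO and MS023 samples.

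Within the ribosome the levels were far apart, although the proteins are needed in equal numbers. The median of the 77 subunit genes without paralogs was 3177 TPM in DMSO, 2721 TPM with MS023, 3068 TPM in isgCtrl and 3153 TPM in PRMT1-KO. RPS27, a small subunit protein with a zinc finger, was the highest of them in all 4 groups, at 12122 ± 65.9 TPM in DMSO and 11905 ± 418 TPM with MS023 (SD, n = 3). RPS18 followed it in all 4 groups. RPL9 was the lowest in all 4 groups, at 521 ± 14.5 TPM in DMSO and 475 ± 15.4 TPM with MS023 (SD, n = 3). Replicates varied little, with a median SD over the 77 genes of 0.02 to 0.04 on the log2 scale, against an SD of 0.82 to 0.86 between genes within a group. The order of the genes was nearly kept: across the 77 genes the group means of log2(TPM+1) correlated with r = 0.964 (MS023 with isgCtrl) to 0.997 (isgCtrl with PRMT1-KO), a description over genes that share libraries. Between isgCtrl and PRMT1-KO no gene moved by more than 7 ranks, and between DMSO and MS023 the most was 16 ranks. The paralogs lay far lower, at means over all samples of 99.3 TPM for RPL7L1, 77.4 TPM for RPL22L1, 72.4 TPM for RPS27L, 66.9 TPM for RPL26L1, 41.6 TPM for RPL39L and 1.93 TPM for RPL10L. RPL3L, the paralog known from muscle, was between 0 and 0.24 TPM and was the only member not tested.

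More ribosomal protein mRNAs fell with MS023 than rose. Of 83 genes tested against DMSO in limma, 3 rose, 32 fell and 48 were not called at a Benjamini-Hochberg adjusted p under 0.05 over all genes tested. Of all 12903 genes tested, 18.4% were called higher and 30.4% lower, so that a rise was rarer among the ribosomal protein genes (3.61%) and a fall somewhat more common (38.6%). Their median log2 fold change was -0.14, beside -0.11 for all genes tested. Changes were small: none of the 83 rose and 3 fell by more than the 0.48 on the log2 scale that the study set for a differentially expressed gene (DEG), which 11.6% of all genes passed upwards and 19.3% downwards. The MS023 and DMSO samples did not overlap for 14 genes that were higher with MS023 and 51 that were lower, where 23.2% and 36.3% of all genes tested were apart in these directions. For a single gene, the exact permutation test (two-sided) of 3 MS023 and 3 DMSO samples cannot go below p = 0.1. The split depends on the scaling. Under median-ratio scaling, which brings the median of all genes from -0.11 to 0.00, 12 ribosomal protein genes were called higher and 14 lower. All 14 were among the 32. Of all 12975 genes tested there, 3247 were called higher and 3009 lower, so a fall was not more common among the members. With a variance trend in eBayes, 13 members were called higher and 52 lower, where 2505 and 4103 of all 12903 genes were.

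**Figure D2:**
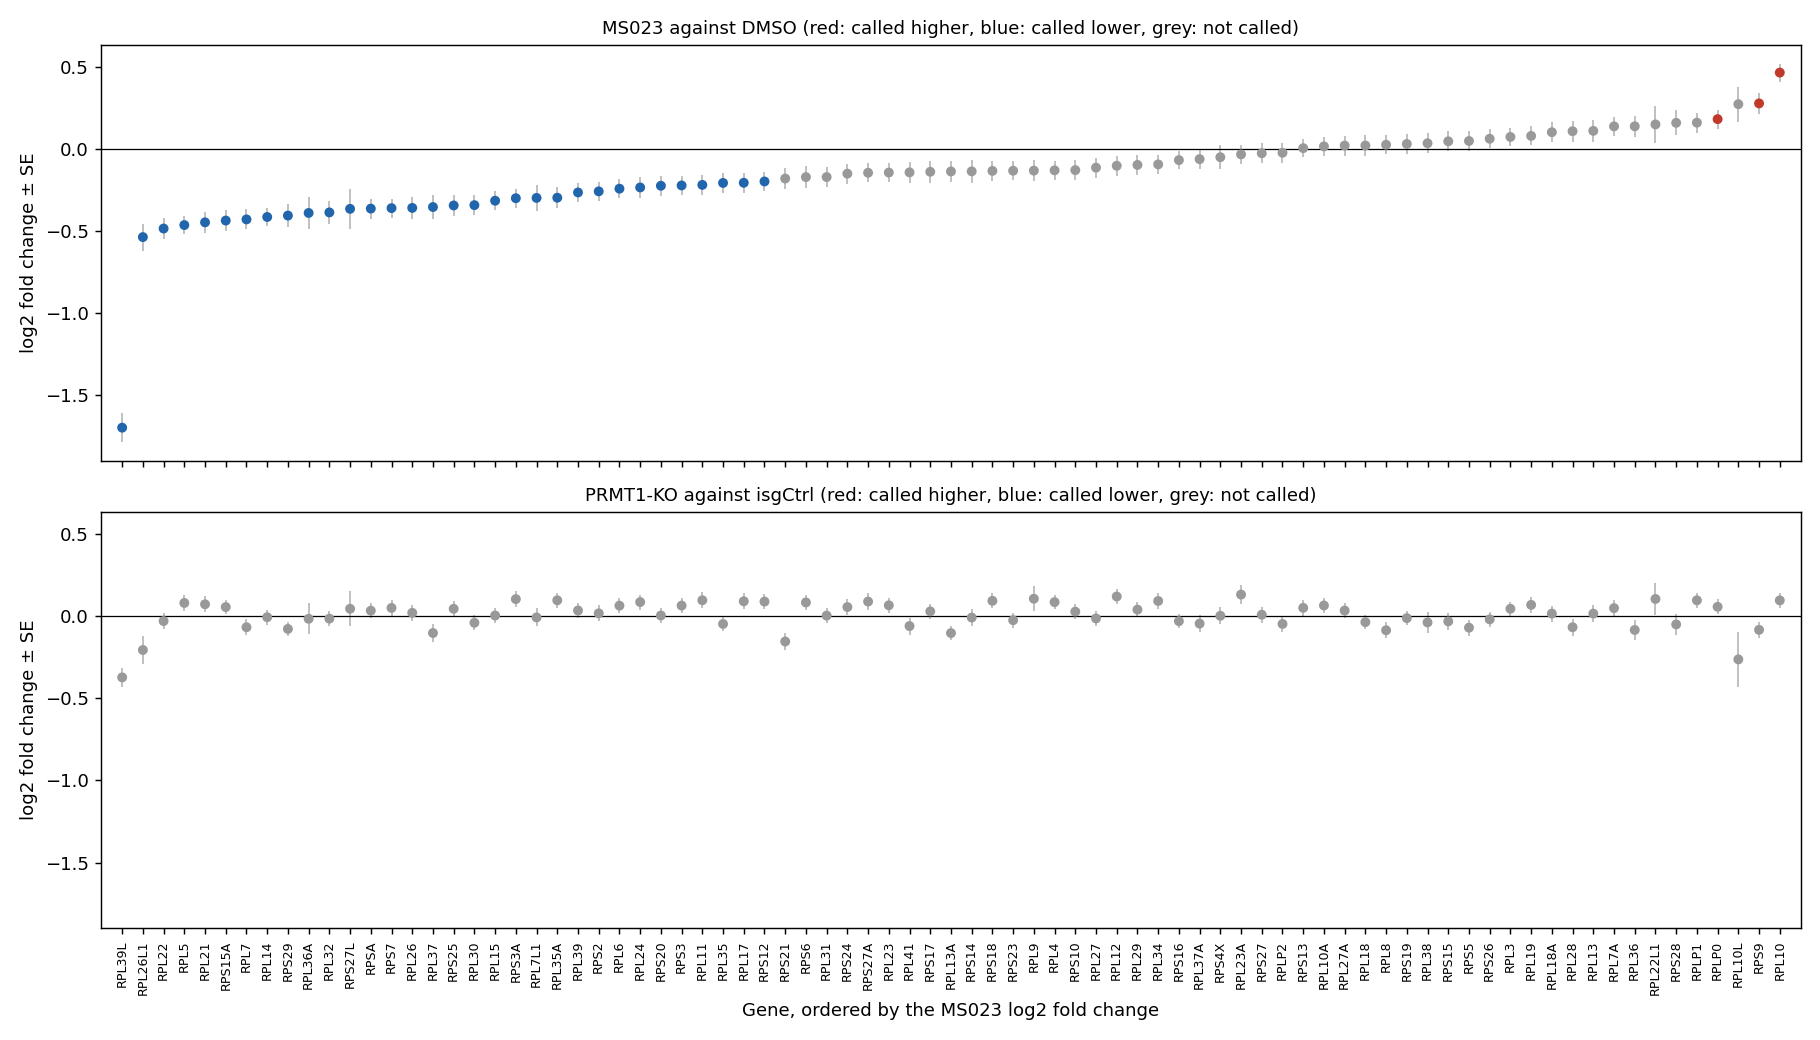
Log2 fold change of 81 of the 83 tested ribosomal protein genes, ± SE from limma, for MS023 against DMSO (upper) and PRMT1-KO against isgCtrl (lower), in the same gene order and on the same axis. Red and blue points are genes called higher and lower; with MS023 the values run from -1.70 (RPL39L) to 0.46 (RPL10) with 3 red and 32 blue, and in PRMT1-KO none is called.

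RPL10 showed the largest rise with MS023. It codes for the large subunit protein that joins last, when the subunit matures in the cytoplasm, and the gene lies on chromosome X from 154389955 to 154409168 on the plus strand (GRCh38). It stood at 3696, 3723 and 3702 TPM in DMSO and at 5105, 5119 and 5119 TPM with MS023. The 3 MS023 samples were far above every other sample, since isgCtrl ran from 3762 to 3857 TPM and PRMT1-KO from 4047 to 4098 TPM. The log2 fold change was 0.46 ± 0.05 (SE; limma, adjusted p = 0.0012), and RPL10 was the only member called higher in all 19 fits of this comparison, which included other scalings, filters and each sample left out. RPS9, a small subunit protein that binds early in assembly, was 3365, 3564 and 3484 TPM in DMSO and 4269, 4352 and 3997 TPM with MS023. Its groups did not overlap, with a log2 fold change of 0.28 ± 0.07 (SE; limma, adjusted p = 0.015). It lost its call without DMSO replicate 1 or MS023 replicate 1, at 0.25 and 0.27.

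The stalk of the large subunit, which recruits translation factors, is built of RPLP0, RPLP1 and RPLP2 on a base of RPL12. RPLP0 rose from 3090, 3049 and 3186 TPM in DMSO to 3545, 3560 and 3465 TPM with MS023, by 0.18 ± 0.06 on the log2 scale (SE; limma, adjusted p = 0.043). Its groups did not overlap, but it was called in 11 of 19 fits and lost its call without any 1 of the 6 samples, at log2 fold changes of 0.17 to 0.20. RPLP1 was 1849 ± 27.6 TPM in DMSO and 2066 ± 77.7 TPM with MS023 (SD, n = 3) and was not called, at a log2 fold change of 0.16 (limma, adjusted p = 0.074). RPLP2 and RPL12 were not called either, at -0.02 and -0.10, and both values were above 0 under median-ratio scaling, at 0.10 and 0.02.

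RPL5 and RPL11 bind the 5S ribosomal RNA together, bring it into the large subunit, and when free bind the p53 regulator MDM2. Both fell with MS023. RPL5 was 3178, 3153 and 3115 TPM in DMSO and 2272, 2302 and 2276 TPM with MS023. The replicates of each group lay close together and the groups were wide apart, with a log2 fold change of -0.46 ± 0.06 (SE; limma, adjusted p = 0.0012). RPL11 was 4174, 4393 and 4205 TPM in DMSO and 3778, 3639 and 3556 TPM with MS023, a smaller fall of 0.22 on the log2 scale (limma, adjusted p = 0.028). RPL11 was called in 10 of 19 fits: the call was lost without any 1 of the 6 samples, and the log2 fold change was -0.09 under median-ratio scaling and -0.11 with the coding GC trend taken off. MDM2 mRNA itself was a mean of 15.7 TPM in DMSO and 39.0 TPM with MS023, a log2 fold change of 1.27 ± 0.16 (SE; limma, adjusted p = 0.0014).

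Other large subunit genes fell by similar amounts. RPL22, an RNA-binding protein at the surface of the large subunit, was 1930, 2029 and 1970 TPM in DMSO and 1419, 1459 and 1360 TPM with MS023, and its log2 fold change of -0.48 ± 0.06 (SE; limma, adjusted p = 0.0016) just passed the DEG threshold. RPL5 stayed just short of it. RPL21 was 3043, 3183 and 3009 TPM in DMSO and 2320, 2276 and 2178 TPM with MS023, a log2 fold change of -0.45 (limma, adjusted p = 0.0022). RPL7, RPL14 and RPL36A had log2 fold changes of -0.43, -0.41 and -0.39. In all, 2 large subunit genes rose and 18 fell of 46 (4.35% and 39.1%). RPL22, RPL21 and RPL7 lost their call with the coding GC trend taken off, at -0.23, -0.18 and -0.16, and RPL36A lost its call there, under median-ratio scaling and without DMSO replicate 2 or 3. In none of these genes did MS023 and DMSO samples overlap.

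**Figure D3:**
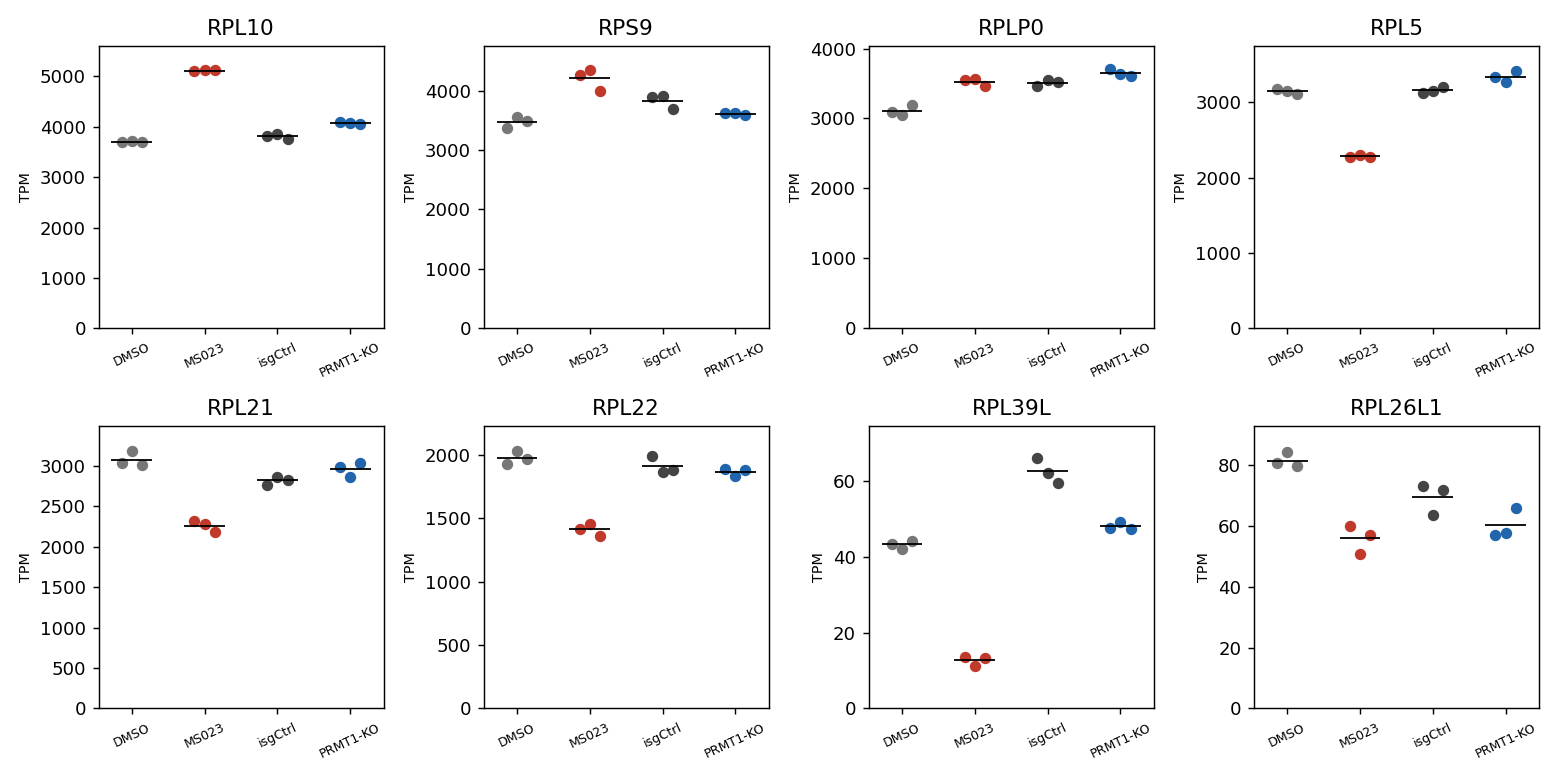
TPM of 8 ribosomal protein genes in each of the 12 samples, as points with the mean of 3 replicates as a line, on axes that start at 0. RPL10 (5105 to 5119 TPM), RPS9 and RPLP0 were higher with MS023 than with DMSO, and RPL5, RPL21, RPL22, RPL39L and RPL26L1 were lower.

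In the small subunit 1 of 31 genes rose and 10 fell, so the share that fell (32.3%) was near the 30.4% of all genes tested, and the share that rose (3.23%) was below their 18.4%. RPS15A, a core protein of the small subunit, was 3190, 3383 and 3256 TPM in DMSO and 2440, 2479 and 2345 TPM with MS023, a log2 fold change of -0.44 ± 0.06 (SE; limma, adjusted p = 0.0023). RPS29 followed at -0.41, RPSA, which is also known as a laminin receptor, at -0.36, and RPS7 at -0.36. All 4 had MS023 samples below every DMSO sample. Of the arginine methylation substrates, RPS2 was 4551 ± 76.7 TPM in DMSO and 3805 ± 84.3 TPM with MS023 (SD, n = 3), a log2 fold change of -0.26 (limma, adjusted p = 0.013). RPS3 fell by 0.22 on the log2 scale (limma, adjusted p = 0.019), and RPS10 was not called, at -0.13 (limma, adjusted p = 0.13). Under median-ratio scaling RPS2 and RPS3 kept their direction, at -0.13 and -0.10, but lost their calls. RPS3 was called in 11 of 19 fits and lost its call also without any 1 DMSO replicate or MS023 replicate 1. PRMT3, the methyltransferase known to act on RPS2, had mean mRNA levels of 24.8 TPM in DMSO and 10.6 TPM with MS023, a log2 fold change of -1.15 ± 0.07 (SE; limma, adjusted p = 1.4e-04). RPS6, the phosphorylated readout of mTOR signalling, and RPS27A, made as a fusion with ubiquitin, were not called, at log2 fold changes of -0.17 and -0.15 (limma, adjusted p = 0.074 and 0.079). RPS19, a gene mutated in Diamond-Blackfan anaemia, and RPS4X, a small subunit protein encoded on chromosome X, were not called either, at 0.03 and -0.05.

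The paralogs held the largest fall of all members. RPL39L, a copy of RPL39 known from testis and from tumour cells, was 43.3, 42.1 and 44.2 TPM in DMSO and 13.5, 11.2 and 13.3 TPM with MS023. The highest MS023 sample was far below the lowest DMSO sample, with a log2 fold change of -1.70 ± 0.09 (SE; limma, adjusted p = 8.9e-05). RPL26L1 was 80.6, 84.3 and 79.8 TPM in DMSO and 60.2, 50.8 and 57.1 TPM with MS023, a log2 fold change of -0.54 ± 0.08 (SE; limma, adjusted p = 0.0031). RPL7L1 fell by 0.30 on the log2 scale (limma, adjusted p = 0.021), a call kept in 13 of 19 fits and lost, among others, without DMSO replicate 1 or 2 or MS023 replicate 1. RPS27L, a p53 target in other cells, was called at the edge of the threshold with a log2 fold change of -0.36 ± 0.12 (SE; limma, adjusted p = 0.0495). The call was kept in 7 of 19 fits. RPL22L1 was not called, at 0.15 ± 0.11 (SE; limma, adjusted p = 0.31), and neither was RPL10L, at 0.27 (limma, adjusted p = 0.077).

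Set against their main copies, RPL39L, RPL26L1 and RPS27L were lower and RPL22L1 higher with MS023. RPL39L stood at 1.18% to 1.26% of the TPM of RPL39 in the 3 DMSO samples and at 0.45%, 0.38% and 0.46% with MS023. In isgCtrl the share was 2.26%, 2.07% and 2.01%, and with the PRMT1 guide 1.56%, 1.65% and 1.54%. The 4 groups did not overlap anywhere, and the share was lower with MS023 and with the PRMT1 guide than in each control (exact permutation test, two-sided, p = 0.1 for both, the smallest it can give). RPL22L1, whose mRNA the RPL22 protein is known to repress, stood at 3.89%, 4.25% and 4.13% of RPL22 in DMSO and at 6.97%, 6.46% and 5.69% with MS023 (exact permutation test, two-sided, p = 0.1). All MS023 samples were above all DMSO samples, and the mean went from 4.09% to 6.37%. In isgCtrl and PRMT1-KO it was 3.49% and 3.83% with overlapping samples (exact permutation test, two-sided, p = 0.2). A ratio within a sample does not change with the scaling of the sample.

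**Figure D4:**
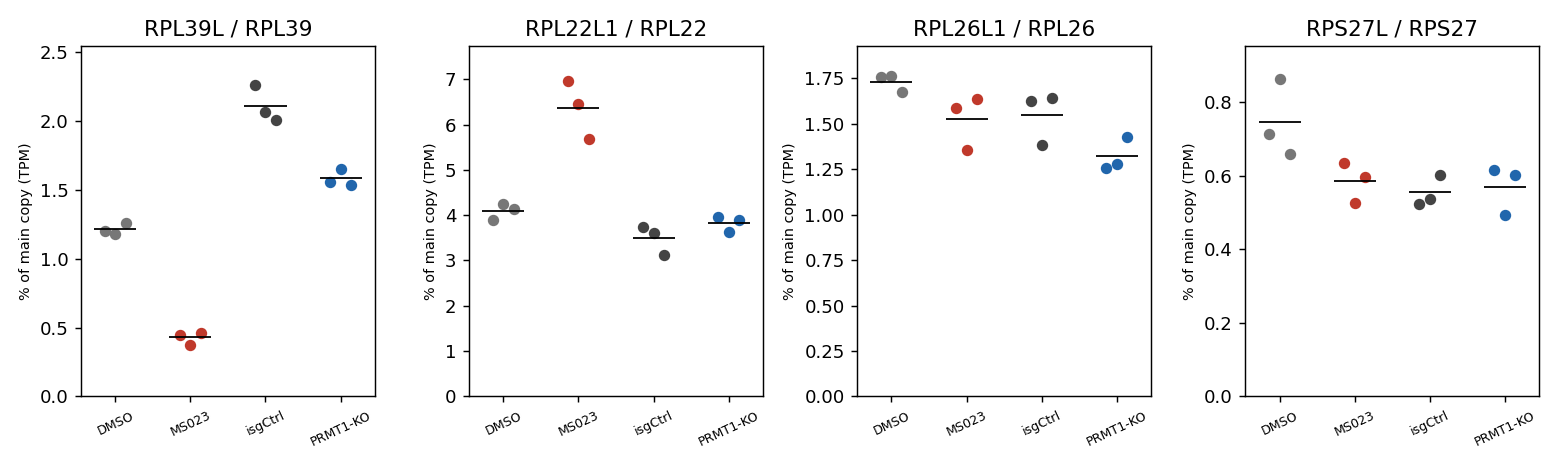
TPM of 4 paralogs as a percent of the TPM of their main copy in each of the 12 samples, with means of 3 replicates as lines and axes from 0. The mean of RPL39L was 1.21% of RPL39 in DMSO and 0.43% with MS023, and that of RPL22L1 was 4.09% and 6.37% of RPL22.

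Across 19 fits of MS023 against DMSO, 10 genes were called lower and 1 higher in every one. The 10 were RPL39L, RPL26L1, RPL5, RPL14, RPS15A, RPS29, RPSA, RPS7, RPL32 and RPL15, of which RPS29, RPL32 and RPL15 lie outside the rule for named genes and were chosen after their values were seen, as were RPL9, RPL13A and RPS21. Their log2 fold changes over the 19 fits ran from -1.76 to -1.44 for RPL39L and from -0.51 to -0.21 for RPL5. RPL10 ran from 0.39 to 0.59. Calls in every fit were not counted over all genes tested, so these counts have no background share to be read against.

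In PRMT1-KO cells no ribosomal protein gene was called. Of 83 genes tested against isgCtrl in limma, 0 passed an adjusted p under 0.05 in either direction, where 0.676% of all 12285 genes were called higher and 0.602% lower. At an unadjusted limma p under 0.05, 1 was higher and 2 were lower, where 2290 of all 12285 genes passed in either direction. RPL39L had the largest log2 fold change, at -0.37 ± 0.06 (SE; limma, adjusted p = 0.054), from 66.1, 62.1 and 59.4 TPM in isgCtrl to 47.6, 49.2 and 47.2 TPM in PRMT1-KO. Its groups did not overlap, and it was called lower in limma with all 12 samples in 1 fit, with a filter of log2(TPM+1) above 1 in every sample, and with a variance trend in eBayes. That trend gave 5 members higher, RPL10 and RPL12 among them, and 4 lower (RPL39L, RPL13A, RPS21 and RPS29). Of all 12285 genes, the fit with trend called 162 higher and 272 lower. In the main fit no member was called. The other members lay between -0.26 and 0.13 on the log2 scale. Their values were, by role, RPL5 at 0.08 and RPL11 at 0.10, RPL10 at 0.09, RPS9 at -0.08, RPLP0 at 0.06, RPS2 at 0.02, RPS3 at 0.06 and RPS10 at 0.03.

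Small differences of 1 sign were frequent among the members. The PRMT1-KO and isgCtrl samples did not overlap for 31 genes that were higher in PRMT1-KO and 13 that were lower, or 37.3% and 15.7% of the members, where 9.11% and 17.6% of all genes tested were apart in these directions. The median log2 fold change of the members was 0.02, beside -0.04 for all genes tested. In TPM each member's share depends on all other genes, and the immunoglobulin genes held 3.20% to 3.27% of TPM in isgCtrl samples and 3.90% to 3.93% in the PRMT1-KO samples. With immunoglobulin and mitochondrial genome genes left out of the total, the members' summed TPM in PRMT1-KO was 101% of isgCtrl, beside 100.6% with them. Both classes were left out together, so the part of the immunoglobulin genes alone in this shift was not tested.

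The difference between the effects of MS023 and of PRMT1-KO was tested itself, in 1 limma fit of all 12 samples. It was called higher for 2 members and lower for 36 of 83, or 2.41% and 43.4%, where 14.4% of all 13256 genes were called higher and 21.2% lower. RPL10, at 0.37 ± 0.06, and RPS9, at 0.36 ± 0.07, had the higher MS023 effects (SE; limma, adjusted p = 7.2e-04 and 0.0034). RPL39L had the lowest difference, at -1.32 ± 0.10 (SE; limma, adjusted p = 9.1e-06), followed by RPL5 at -0.54, RPL21 at -0.52, RPS15A at -0.49 and RPL22 at -0.45. RPS9 stood at 0.28 with MS023 and -0.08 in PRMT1-KO, and RPL5 at -0.46 and 0.08. Across the 77 subunit genes without paralogs, the log2 fold changes of both comparisons, which share no samples, correlated with r = -0.06 and had the same sign in 29. Across all 11932 genes tested in both, r was 0.23. The counts depend on the scaling here too, with 7 higher and 18 lower under median-ratio scaling, all 18 of which were among the 36. Of all 13275 genes tested under that scaling, 2407 were called higher and 2341 lower.

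The members also differed between the control groups. Against DMSO, isgCtrl cells had 20 members called higher and 13 lower, or 24.1% and 15.7%, near the 21.5% and 13% of all 12661 genes tested. They differ in Cas9, vector, doxycycline and vehicle together, which cannot be told apart, and the comparison shares its samples with those above. RPL8, a core protein of the large subunit, was 5236, 5155 and 5252 TPM in DMSO and 7531, 7819 and 7523 TPM in isgCtrl. The groups were wide apart, with a log2 fold change of 0.55 ± 0.05 (SE; limma, adjusted p = 0.0014). RPL39L was at 0.52, RPS2 at 0.38, RPS15 and RPL18 at 0.34 and RPS3 and RPL7A at 0.30. The lowest of those called were RPS27L at -0.49, RPL23A at -0.40, RPL36A at -0.33, RPS4X at -0.31, RPS13 at -0.27 and RPL39 at -0.26. Of the 46 large subunit genes, 15 were called higher and 8 lower (32.6% and 17.4%). Of the 31 small subunit genes, 3 were called higher and 4 lower (9.68% and 12.9%). With any 1 of the 6 samples left out, 10 to 15 members were called higher and 4 to 6 lower. Over all genes tested, these fits called 1813 to 2180 higher and 1148 to 1423 lower.

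The members' response to MS023 went with the base composition of their coding sequence. GC content of the coding sequence was taken from the canonical GENCODE v44 transcript and ran from 42.48% to 62.99% over the 77 subunit genes. Across them, the MS023 log2 fold change correlated with coding GC at r = 0.60, and across 10924 other genes at r = 0.22. The 26 members with the lowest GC, up to 47.94%, had a median log2 fold change of -0.25, with 0 called higher and 17 lower, beside a median of -0.19 over 2321 other genes of that GC range, of which 10.7% were called higher and 36.8% lower. The 25 members in the middle had a median of -0.13, with 0 higher and 8 lower, beside -0.09 over other genes, of which 18.3% were called higher and 27.6% lower. The 26 members with the highest GC, from 54.15%, had a median of 0.05, with 3 higher and 3 lower, beside 0.03 over other genes, of which 27.4% were called higher and 22.6% lower. RPL10, RPS9 and RPLP0 all belong to this group. In PRMT1-KO the correlation had the other sign, r = -0.42, over a narrow range of fold changes, beside -0.02 across 10508 other genes. In isgCtrl against DMSO, which has the same DMSO samples as the MS023 comparison, it was 0.59, beside 0.17 across 10776 other genes. A correlation of this size was thus not particular to MS023. With the GC trend of all genes taken off each sample, MS023 gave 8 members higher and 13 lower, and all 13 were among the 32. This alternative was added after the data were seen. Of all 11115 genes tested in it, 2957 were called higher and 2554 lower, larger shares than among the members.

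**Figure D5:**
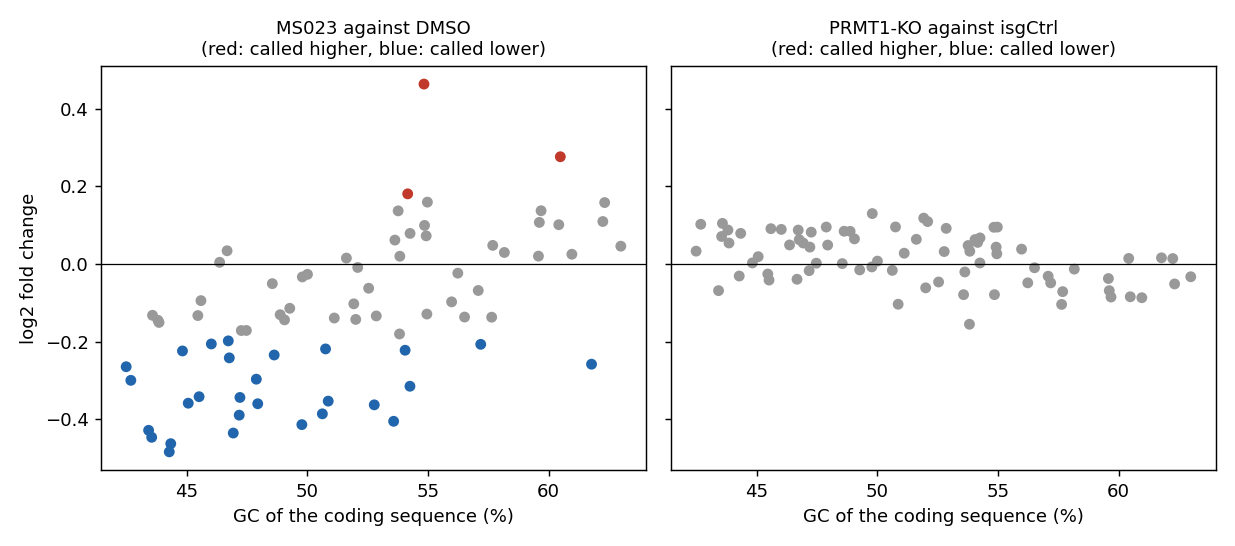
Log2 fold change against the GC content of the coding sequence for the 77 subunit genes without paralogs, for MS023 against DMSO (left) and PRMT1-KO against isgCtrl (right). Red and blue points are genes called higher and lower; the points rise from left to right with MS023 (r = 0.60) and fall slightly in PRMT1-KO (r = -0.42).

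Medians of the MS023 response differed little by other shared features. The median log2 fold change was -0.14 for the 46 subunit genes with an oligopyrimidine start and -0.12 for the 16 with no such start listed. In RPL10A, RPL4 and RPL9, all without one, a run of C and T begins a few bases after the listed start. The 16 may thus hold mRNAs with a TOP element, and this split cannot show whether the response goes with it. It was -0.14 for the 28 genes that hold a small nucleolar RNA gene in an intron and -0.13 for the other 49. Over the 77 genes r was 0.07 with coding length and 0.00 with mean level.

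The related lists are read against the same 18.4% of all genes called higher and 30.4% lower with MS023. Of 78 mitochondrial ribosomal protein genes, 6 rose and 36 fell (7.69% and 46.2%), with a median log2 fold change of -0.18. Of 20 other mRNAs known to start with a TOP element, EEF2 rose by 0.26 and 9 fell (45%), among them the initiation factor subunit EIF3E by 0.57 and the elongation factor subunit EEF1B2 by 0.44 on the log2 scale. Of the subunit genes outside the symbol rule, RPL36AL fell by 0.26 on the log2 scale, and FAU and RACK1 were not called. Of 16 regulators of ribosomal protein synthesis, 2 rose and 5 fell (12.5% and 31.2%, the latter near the share of all genes), and MYC, MTOR and LARP1 were not called, at 0.14, -0.11 and 0.09. In PRMT1-KO, PRMT1 was the only gene called in any of these lists.

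Ribosomal protein genes have many processed pseudogenes, which can take reads from the parent gene. The table listed 1236 of them, of which 455 were above 0 in some sample, and they held 0.38% to 0.43% of TPM. RPL23AP42 alone made up 62.8% of that sum, at a mean of 2580 TPM, more than RPL23A in any sample, so the values of RPL23A are uncertain. RPS2P5 followed at 1026 TPM, and its means of 909 TPM in DMSO, 744 TPM with MS023 and 1210 TPM in isgCtrl moved with those of RPS2. With pseudogene TPM added to the parent genes, MS023 again gave 3 members higher and 32 lower.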

How the data were processed

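The authors trimmed reads with Trimmomatic, checked them with FastQC, aligned them by STAR (hg38, GENCODE V35) and quantified transcripts by Salmon. They deposited log2(TPM+1) values per gene symbol for 12 samples, and these were used as they stand. Per the labels, more than 60000000 read pairs were sequenced per sample, but TPM keep no depth, and no count model was used. The deposited values were fitted in limma 3.58.1 (R 4.3.3; lmFit and eBayes without trend), with Python 3.11.15 for the rest. On the 6 samples of a comparison, genes were tested whose mean value passed 1 in at least 1 of its groups, two-sided, with Benjamini-Hochberg adjustment over all genes tested. A gene was called at an adjusted p under 0.05 and was a DEG with an absolute log2 fold change above 0.48 as well. The difference between the MS023 and PRMT1-KO effects was fitted on all 12 samples. Single values were compared by exact permutation tests.

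Samples were grouped by their labels. The labels do not say that replicates came from separate cultures, so p rest on the spread between these samples, which may be technical. They do not rest on a gene's own replicates alone. Without trend, eBayes draws the variance of each gene towards a value shared by all genes tested, and SE and p follow it. For RPL10 the SD of log2(TPM+1) was 0.006 in DMSO and 0.002 with MS023, both below the SE given for its fold change. The gene family, gene lists and tests were chosen with earlier results of these data known. Named genes were the paralogs with their main copies, RPL5, RPL11, the stalk proteins, RPS2, RPS3, RPS10, RPS6, RPS19, RPSA, RPS4X, RPS27A, the 8 called members with the largest rise and fall in each comparison, and the 3 highest and 3 lowest members by TPM. Some genes that the rules take in are not reported here. Pseudogenes were symbols of a member followed by P and a number.

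Positions, coding sequences and their GC come from GENCODE v44 on GRCh38, and start sites from the RefSeq promoter table, which spans 250 bases before to 50 after a start. Alternatives were no filter, a filter in every sample, median-ratio and quantile scaling, a pseudocount of 0.1, rescaling without immunoglobulin and mitochondrial genome genes or without the members, eBayes with trend, a replicate block, all 12 samples in 1 fit, pseudogenes added to parents, the DEG threshold, each replicate left out, and the median trend over 20 bins of coding GC taken off. The code was tested on simulated data.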

Additional observations from a re-analysis of the deposited data

Results flagged for a closer look

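The difference between the effect of MS023 and that of PRMT1-KO was past the limma threshold for 2 members with a higher and 36 with a lower MS023 effect, of which the named ones follow. RPL10, at 0.369, and RPS9, at 0.361, had the higher effect with MS023 (differences of log2 fold changes throughout). Among paralogs and their main copies, RPL39L was at -1.322 and RPL22 at -0.4535, RPL26 at -0.378, RPL7 at -0.3603, RPL39 at -0.2981 and RPL7L1 at -0.2892. The 5S RNA partners RPL5 and RPL11 were at -0.5424 and -0.3146. Other large subunit genes were RPL21 at -0.518, RPL14 at -0.4067 and the stalk base RPL12 at -0.2211. In the small subunit the values were -0.4901 for RPS15A, -0.4093 for RPS7, -0.4025 for RPS3A, -0.3954 for RPSA, -0.2855 for RPS3, -0.2744 for RPS2, -0.2537 for RPS6, -0.2329 for RPS27A and -0.226 for RPS18.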

How the results depend on the processing

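For named called members, 1140 of 1298 values under an alternative kept direction and call, 156 kept the direction only, and 2 reversed, both with the GC trend taken off: RPL39 with MS023 (0.019) and RPS27A in the difference of effects (0.0013). Counts over all members are given as higher and lower. For MS023 against DMSO (3 and 32), they were 12 and 14 with median-ratio scaling, 13 and 52 with eBayes trend, 8 and 13 with the GC trend taken off, and 0 and 3 at the DEG threshold, and the count higher was 5 with no filter and with all 12 samples. For PRMT1-KO (0 and 0), they were 5 and 4 with trend, and the count lower was 1 with all 12 samples or a filter in every sample. For isgCtrl against DMSO (20 and 13), they were 13 and 24 with median-ratio scaling, 8 and 26 with GC, and 2 and 1 at the DEG threshold, and the count lower was 33 with trend and 20 with all 12 samples. For the difference of effects (2 and 36), they were 7 and 18 with median-ratio scaling, and the count higher was 5 with no filter, 4 with a filter in every sample, with quantile scaling and without immunoglobulin and mitochondrial genes, and 10 with trend, while the count lower was 14 with GC. At the DEG threshold they were 0 and 4. Counts over all genes tested moved as well. For MS023 they were 3247 and 3009 of 12975 with median-ratio scaling and 2957 and 2554 of 11115 with GC. With trend they were 2505 and 4103 of 12903 for MS023 and 162 and 272 of 12285 for PRMT1-KO. For isgCtrl they were 2206 and 1981 of 12602 with median-ratio scaling and 1657 and 1953 of 10832 with GC. For the difference they were 2407 and 2341 of 13275 with median-ratio scaling and 2137 and 1973 of 11219 with GC. The summed TPM of MS023 as a percent of DMSO reversed to 100.5% under median-ratio scaling, and that of PRMT1-KO as a percent of isgCtrl was 103.6%. The cause of these moves was not tested. Leaving out 1 replicate gave 1 to 2 higher and 21 to 26 lower for MS023, 0 and 0 for PRMT1-KO, 10 to 15 and 4 to 6 for isgCtrl, and 2 to 4 and 30 to 37 for the difference. Over all genes tested, these fits called 1998 to 2203 higher and 3207 to 3718 lower for MS023, and 1 to 11 and 1 to 10 for PRMT1-KO. They called 1813 to 2180 and 1148 to 1423 for isgCtrl, and 1667 to 1870 and 2463 to 2887 for the difference. With so few calls for PRMT1-KO, the 0 and 0 there says nothing about the members. For MS023, leaving out DMSO replicate 2 gave the 21, and leaving out DMSO replicate 1 or MS023 replicate 1 left 1 called higher. For the difference, 4 were higher without MS023 replicate 3. Whether replicate numbers pair the samples cannot be settled from 3 replicates. Between same-numbered MS023 and DMSO samples r was 0.02, 0.07 and 0.10, and between different-numbered ones it ran from -0.10 to 0.03. Between same-numbered PRMT1-KO and isgCtrl samples r was -0.14, 0.07 and -0.07, and between different-numbered ones it ran from -0.10 to 0.17. With the replicate block, counts were 3 and 23 for MS023, 0 and 0 for PRMT1-KO, 10 and 5 for isgCtrl and 3 and 33 for the difference. Over all genes tested, the block gave 2202 and 3688 for MS023, 1913 and 1203 for isgCtrl and 1865 and 2759 for the difference. For PRMT1-KO it called none of all 12285 genes (limma, lowest adjusted p = 0.149), so the 0 and 0 there says nothing about the members. The deposited values hold no counts, so the counting error of low paralogs could not be given.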
